A study of Mus musculus with 12 samples.

Results

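The genes described here are 10 interferon-induced effectors of innate immunity: Ifit1, Ifit2, Ifit3, Ifi44, Mx1, Mx2, Oas1a, Oas2, Oasl1 and Iigp1. They were taken by symbol from the nanostring panel, where they make up 10 of the 248 inflammation-related genes tested, and all 10 were found. The panel was measured in 6 samples of Kupffer cells, the resident macrophages of the liver, and 6 samples of blood monocytes. All mice were of the Balb/C strain, with no genotype, treatment or age named in the labels. Each sample pooled the sorted cells of 5 mice according to the labels (4 to 5 according to the methods), so the spread between samples is a spread between pools. Magnetic sorting on the macrophage surface protein F4/80 was used for both. The livers were first digested with collagenases. Liver and blood cells were each separated on a density gradient before sorting, and 100 ng of total RNA entered each reaction.

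Interferons are secreted signals that put cells into an antiviral state. Type I interferons act through a receptor whose kinases activate a complex of transcription factors, with Stat2 and Irf9 among them, that binds a DNA element called the interferon-stimulated response element (ISRE). Interferon gamma, made mainly by T and NK cells, acts through another receptor and another element and induces an overlapping set of genes. Kupffer cells line the liver sinusoids, where they meet microbial material that arrives from the gut.

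The members fall into 4 groups by role. Ifit1, Ifit2 and Ifit3 encode tetratricopeptide proteins that bind viral RNA or partner proteins and hinder viral translation. Oas1a and Oas2 encode oligoadenylate synthetases, which on sensing double-stranded RNA make the messenger that activates RNase L, and Oasl1 encodes a related protein known to restrain translation of Irf7. Mx1, Mx2 and Iigp1 encode GTPases: the Mx proteins trap viral components, and Iigp1 is an immunity-related GTPase that damages the vacuoles of intracellular parasites. Ifi44 encodes an interferon-induced cytoplasmic protein. Most inbred strains, BALB/c included, carry an Mx1 allele that makes no working protein, and the GRCm38.p6 annotation lists both Mx genes as transcribed pseudogenes, so their values here are transcript levels alone.

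Bases upstream of the transcription start were used for 6 of the 10 genes from a RefSeq table (GRCm38.p6), namely Ifit1, Ifit2, Ifit3, Ifi44, Oas1a and Oasl1. They were searched on both strands, in the 250 bases before the start, for the core of the ISRE, spelled GAAA, any 2 bases and GAAA again, which reads TTTC, any 2 bases and TTTC on the other strand. Matches stood before Ifit1, Ifit3 and Oas1a, which is 3 of 6 genes (50%), against 4.57% of 175 other panel genes and 3.46% of 27025 genes in the table. The 3 sequences are shown because the interferon pathway acts through this element, with the matches in capitals and the last base next to the start.
Ifit1 (chr19:34640639-34640888, plus strand): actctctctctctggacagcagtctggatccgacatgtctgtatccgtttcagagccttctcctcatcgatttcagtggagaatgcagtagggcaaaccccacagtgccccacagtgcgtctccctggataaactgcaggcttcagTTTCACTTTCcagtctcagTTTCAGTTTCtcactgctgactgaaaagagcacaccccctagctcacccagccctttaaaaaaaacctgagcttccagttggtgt
Ifit3 (chr19:34583279-34583528, plus strand): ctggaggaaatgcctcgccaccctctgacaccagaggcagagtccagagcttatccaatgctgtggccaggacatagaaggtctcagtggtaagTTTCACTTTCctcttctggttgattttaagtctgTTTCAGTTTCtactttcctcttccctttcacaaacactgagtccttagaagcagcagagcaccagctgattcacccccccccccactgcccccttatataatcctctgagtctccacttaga
Oas1a (chr5:120907526-120907775, minus strand): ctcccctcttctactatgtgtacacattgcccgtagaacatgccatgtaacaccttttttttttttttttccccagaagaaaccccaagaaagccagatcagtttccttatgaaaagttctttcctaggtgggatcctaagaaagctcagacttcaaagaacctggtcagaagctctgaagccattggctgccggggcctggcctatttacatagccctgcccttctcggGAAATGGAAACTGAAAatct
In Ifit1 the 2 matches begin 104 and 85 bases before the start, in Ifit3 they begin 156 and 122 bases before it, and both pairs lie on the opposite strand. In Oas1a the 2 matches overlap, on the strand of the gene, and begin 20 and 14 bases before the start. These letters were not found in the windows of Ifit2, Ifi44 and Oasl1, which says nothing on whether an element lies elsewhere.

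All 10 genes lay above the background in all 12 samples, with 42 to 1153 molecules counted per gene and sample. Levels are given as normalized counts, which can be compared between samples of 1 gene but not between genes, since each probe captures its target with its own efficiency. Counted molecules summed to 162988 to 348248 per monocyte sample and to 84401 to 145662 per Kupffer cell sample. The deposited values are these counts multiplied by 0.554 to 1.13 and by 1.305 to 2.17, respectively, to reach a common scale, with the factors recovered from the values. Summed levels of genes fixed as markers of other cells differed as well. The 10 hepatocyte-secreted protein genes summed to 395 to 731 normalized counts in monocytes, where 7 of them stood at the background in every sample, and to 14871 to 44254 in Kupffer cells. The 11 T and NK cell genes on the panel, Ifng among them, summed to 5762 to 11018 in monocytes and to 11607 to 38376 in Kupffer cells. Of these 11, 6 were higher in Kupffer cells and none was lower (limma). The 9 macrophage and monocyte genes on the panel summed to 17403 to 27913 in monocytes and to 6671 to 12218 in Kupffer cells, where Cd163 and Mrc1 were higher and 6 others lower (limma). Adgre1, which encodes F4/80, was not analysed here. The 3 B cell genes on the panel summed to 1609 to 2836 in monocytes and to 2253 to 3703 in Kupffer cells, and Flt1, the 1 endothelial gene, had 9.01 to 27 and 52.2 to 150.8. The neutrophil genes Cxcr1 and Cxcr2 summed to 79.2 to 280.3 and to 73.6 to 160.2, with Cxcr1 at the background in every Kupffer cell sample. The 5 early response genes, which can rise during cell isolation, summed to 5288 to 8534 in monocytes and to 14148 to 26954 in Kupffer cells. Kupffer cell samples 1 and 6 had the highest T and NK cell sums (38376 and 21564, against 11607 to 18052 in the other 4). Such a sum gives most weight to the most abundant genes, and the genes of this list did not all vary alike between Kupffer cell samples. Samples 1 and 6 also had the lowest macrophage sums (6671 and 6942, against 9418 to 12218). They stood apart in Gapdh, one of the genes used for scaling, at 4159 and 4084 normalized counts against 2159 to 2741 in the other 4. Values are therefore also given without both samples. Gusb, another gene used for scaling, had 244 to 409 normalized counts in Kupffer cells and 764 to 1178 in monocytes. The part of these differences in the results below was not tested, and in such bulk samples fewer cells of a type and less RNA per cell cannot be told apart.

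Of the 10 genes, 8 were higher in Kupffer cells at an adjusted p under 0.05 (limma on log2(normalized count + 1), Benjamini-Hochberg over the 248 genes), against 35.1% of all genes tested. Oas2 was lower, as were 21.4% of all genes, and Oas1a did not pass the threshold. These shares depend on the scaling, since all genes split into 87 higher and 53 lower here, into 68 and 108 after rescaling each sample to its panel median, and into 62 and 68 under quantile normalization, where 7 and 5 members were higher and Oas2 stayed the 1 that was lower. In 7 genes every Kupffer cell sample lay above every monocyte sample, which held for 25.8% of all genes, and the same 7 exceeded 2-fold with an adjusted p under 0.05, as did 19.8% of all genes. The median log2 fold change, Kupffer cells over monocytes, was 1.33 over the 10 genes and 0.05 over all genes. Without Kupffer cell samples 1 and 6, again 8 genes were higher and 1 was lower, among 82 higher and 45 lower genes of the 248. The labels do not say how the pools were drawn, so p-values measure only the spread between these samples, which may be technical. The added 1 makes fold changes understate the change of low genes.

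**Figure D1:**
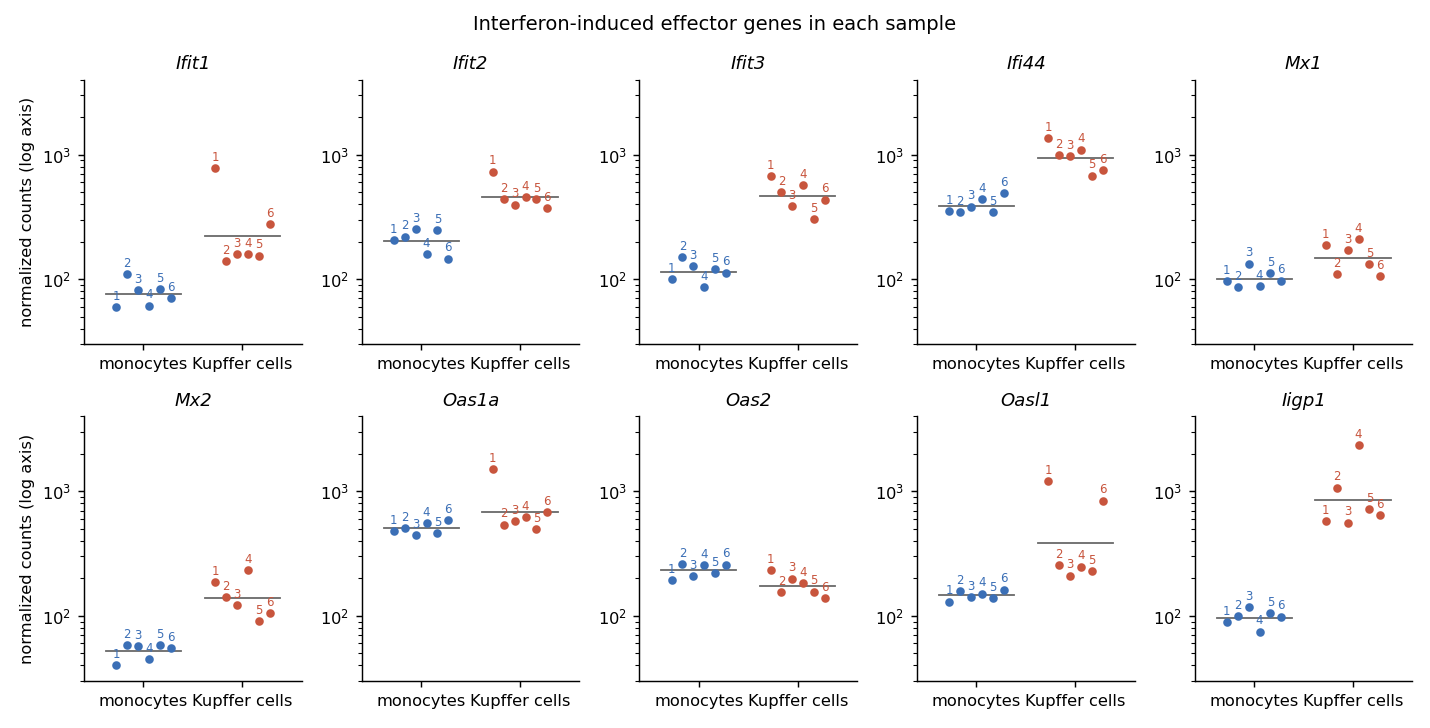
Normalized counts (log axis) of the 10 genes in 6 monocyte samples (blue) and 6 Kupffer cell samples (red), with the sample number above each point and the geometric mean of each cell type as a line. The cell types do not overlap in 7 genes, and overlap in Mx1, Oas1a and Oas2.

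Ifit3 showed the largest difference within the Ifit family. Its normalized counts were 304 to 672 in Kupffer cells (median 467) and 86.9 to 149.7 in monocytes (median 116). The lowest Kupffer cell sample, sample 5, lay well above the highest monocyte sample, sample 2. The means were 477 ± 132 and 116 ± 21.9 (SD, n = 6 samples each), a difference of 2.00 ± 0.20 on the log2 scale (standard error, limma adjusted p = 1.12e-06), that is 4.01-fold, and 1.89 without Kupffer cell samples 1 and 6.

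Ifit2, whose gene lies next to Ifit3 with no protein-coding gene in between, had 369.9 to 731 normalized counts in Kupffer cells (median 439) and 146 to 250.5 in monocytes (median 213). Sample 1 was alone at the top of the Kupffer cells, since the other 5 lay between 369.9 and 457. The mean was 472 ± 131 in Kupffer cells against 205 ± 43.8 in monocytes (SD, n = 6 samples each), a difference of 1.19 ± 0.19 on the log2 scale (standard error, limma adjusted p = 0.000133), that is 2.28-fold, and 1.10 without samples 1 and 6.

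In Ifit1 the Kupffer cell pools were split. It had 780 normalized counts in Kupffer cell sample 1 and 277 in sample 6, while the other 4 lay between 139 and 159. In monocytes it ranged from 59.3 to 109 (median 76.2), below each Kupffer cell sample. The difference was 2.89-fold, or 1.53 ± 0.37 on the log2 scale (standard error, limma adjusted p = 0.00311), and 1.00 without samples 1 and 6 (adjusted p = 0.00051). Under quantile normalization it was 1.13 (adjusted p = 0.0525). Close copies of Ifit1 and Ifit3 exist in the mouse genome, of which Ifit3b lies in the same cluster, and since the probe sequences were not used here it is not known whether the probes tell them apart.

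Ifi44 was higher in each Kupffer cell sample than in any monocyte sample. Its normalized counts were 678 to 1365 in Kupffer cells (median 980.4) and 345 to 494 in monocytes (median 368). The lowest Kupffer cell values were those of samples 5 and 6. The difference was 2.43-fold, or 1.28 ± 0.18 on the log2 scale (standard error, limma adjusted p = 3.35e-05), and 1.23 without samples 1 and 6.

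The Mx genes, which flank Fam3b, differed in how far the cell types came apart. Mx2 had 91.3 to 232 normalized counts in Kupffer cells (median 132) and 40.02 to 58.5 in monocytes (median 56.3), a difference of 1.41 ± 0.22 on the log2 scale (standard error, limma adjusted p = 9.47e-05), that is 2.65-fold. Mx1 had 106 to 210.3 in Kupffer cells (median 152) and 86.7 to 133 in monocytes (median 97.0). Its cell types overlapped, because Kupffer cell samples 2, 5 and 6, at 109.6, 132.6 and 105.7, lay below monocyte sample 3, at 133.3. The log2 fold change of Mx1 was 0.54 (standard error 0.19, adjusted p = 0.0280 from limma), that is 1.46-fold. The call for Mx1 was lost after rescaling each sample to its panel median (0.28, adjusted p = 0.221), after quantile normalization (0.18, adjusted p = 0.438) and when a single sample was left out, either monocyte sample 1, 4 or 6 or Kupffer cell sample 1, 3 or 4 (adjusted p = 0.0513 to 0.0610). Kupffer cell sample 4 was the highest in both genes.

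Iigp1 had the largest log2 fold change of the 10 genes. It stood at 2341 normalized counts in Kupffer cell sample 4 and at 1071 in sample 2, while the other 4 lay between 561 and 722. In monocytes it was 74.7 to 118 (median 99.4), so that the cell types lay far apart. On the log2 scale the difference was 3.12 (95% interval 2.46 to 3.79, limma adjusted p = 1.11e-06), and without Kupffer cell sample 4 it was 2.83. Samples 1 and 6, the highest pools in Ifit1 and Oasl1, were not high in Iigp1, and leaving both out gave 3.36.

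**Figure D2:**
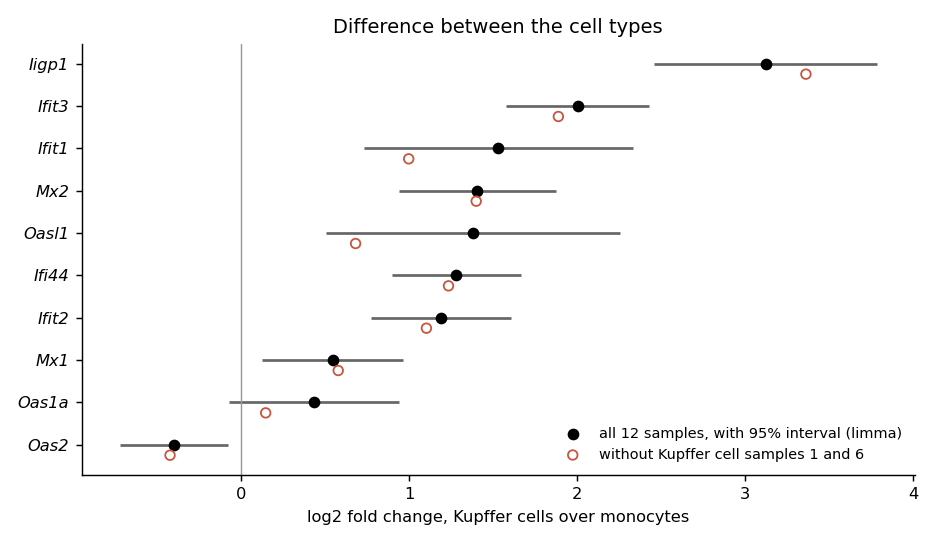
Log2 fold change of each gene, Kupffer cells over monocytes, with its 95% interval from limma over all 12 samples (filled points) and its value without Kupffer cell samples 1 and 6 (open points). The interval of Oas1a (-0.07 to 0.94) includes 0, Oas2 lies below 0, and Ifit1, Oasl1 and Oas1a move most when both samples are left out.

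The synthetase family split in 3 ways. Oasl1 was 210.5 to 1215 normalized counts in Kupffer cells (median 252) and 130.1 to 162 in monocytes (median 146). Samples 1 and 6 stood at 1215 and 841, and the other 4 Kupffer cell samples between 210.5 and 256, still above each monocyte sample. The difference was 2.60-fold, or 1.38 ± 0.41 on the log2 scale (standard error, limma adjusted p = 0.0103). Without samples 1 and 6 it was 0.68 (adjusted p = 0.0004), and under quantile normalization of all 12 samples 1.20 (adjusted p = 0.0690).

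Oas1a was not called. Kupffer cell sample 1 had 1504 normalized counts, the other 5 had 498 to 681, and monocytes had 447 to 583 (median 492), so that apart from sample 1 the cell types largely overlapped. On the log2 scale the difference was 0.43 (95% interval -0.07 to 0.94, adjusted p = 0.119 from limma), and 0.14 without samples 1 and 6 (adjusted p = 0.306). The exact two-sided permutation test of Oas1a alone over the 924 assignments gave p = 0.0368, unadjusted. Several close copies of Oas1a lie beside it, among them Oas1c and Oas1g, and whether the probe tells them apart is not known here.

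Oas2 was the only one of the 10 genes whose log2 fold change was below 0. Its normalized counts were 139.5 to 234 in Kupffer cells (median 169.6) and 194 to 261 in monocytes (median 239). The cell types overlapped: Kupffer cell sample 1, at 234, lay above monocyte samples 1, 3 and 5, at 194, 209 and 220.3, and Kupffer cell sample 3, at 199, above monocyte sample 1. The means were 178 ± 34.6 and 233 ± 29.1 (SD, n = 6 samples each), a difference of -0.40 ± 0.15 on the log2 scale (standard error, limma adjusted p = 0.0334), that is 1.32-fold lower in Kupffer cells. It was -0.42 without Kupffer cell samples 1 and 6 (adjusted p = 0.0217). The call was lost after rescaling to the listed housekeeping genes other than Gapdh, Gusb among them (-0.30, limma adjusted p = 0.0949). It was also lost when a single sample was left out, either monocyte sample 2, 4 or 6 or Kupffer cell sample 2, 5 or 6 (limma adjusted p = 0.0552 to 0.0744). The direction held under each scaling tried (-0.76 to -0.30).

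Whether Oas2 differed from the other 9 was tested within samples, on the log2 ratio of each gene to Oas2, in which the factor of a sample cancels but for the added 1. This holds for the members, while genes at the background carry no factor, so that the shares over all ratios below keep some dependence on the scaling. All 9 ratios were higher in Kupffer cells at an adjusted p under 0.05 (limma over 247 ratios to Oas2), against 41.7% of all ratios, and in all 9 every Kupffer cell sample lay above every monocyte sample, against 30.8% of all ratios. The smallest changes of the log2 ratio were those of Oas1a (0.83, standard error 0.22, adjusted p = 0.00401) and Mx1 (0.95, standard error 0.22, adjusted p = 0.00143). The ratio of Oas1a to Oas2 was 2.87 to 6.42 in Kupffer cells and 1.94 to 2.44 in monocytes. So Oas1a, which was not called by its own level, was higher relative to Oas2 in each Kupffer cell sample than in any monocyte sample. The changes of the log2 ratio of the others were 1.59 for Ifit2, 1.68 for Ifi44, 1.78 for Oasl1, 1.81 for Mx2, 1.93 for Ifit1, 2.40 for Ifit3 and 3.52 for Iigp1. All 9 passed the threshold again without Kupffer cell samples 1 and 6, where the ratio of Oas1a changed by 0.57 (adjusted p = 0.00929). The background share says that a high ratio to Oas2 is not particular to these genes. Because Oas2 had the lowest log2 fold change of the members, the direction of all 9 changes follows by arithmetic. All 9 also share the values of Oas2, so they are not separate results.

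The spread between Kupffer cell pools differed widely among the genes. The SD of log2 values over the 6 Kupffer cell samples was 1.10 in Oasl1, 0.96 in Ifit1 and 0.79 in Iigp1, which were ranks 1, 3 and 8 of the 160 genes above the background in all samples. In the other 7 it ran from 0.27 in Oas2 to 0.58 in Oas1a. In monocytes the SD was 0.12 in Oasl1, the lowest of the 10, and at most 0.32. The Kupffer cell SD was the larger in 10 of 10 genes, while it was so in 78.8% of the 160 genes, and the medians were 0.46 and 0.22 for the 10 genes against 0.35 and 0.22 for the 160. In a test of the absolute deviations from the group mean (limma over 248 genes), only Oasl1 passed the threshold among the 10, against 3.23% of all genes with a larger spread in Kupffer cells. Its mean deviation was 0.91 larger on the log2 scale (adjusted p = 0.00935). This call was lost without Kupffer cell sample 1 (0.55, adjusted p = 0.247), without sample 6 (0.74, adjusted p = 0.267), and with deviations from the median (0.70, adjusted p = 0.610). Without both samples the difference was 0.01 (adjusted p = 0.940).

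The high values did not come from 1 pool alone. Kupffer cell sample 1 was the highest of the 6 in 7 genes, the 3 Ifit genes, Ifi44, Oas1a, Oas2 and Oasl1, and it was the second highest or higher in 9 of 10. It reached 4.94 times the median of the other 5 samples in Ifit1 and 4.89 times in Oasl1, but it was below the mean in Iigp1. Sample 4 was the highest in Mx1, Mx2 and Iigp1, and reached 3.64 times the median of the others in Iigp1. Sample 6 followed sample 1 in Ifit1, Oas1a and Oasl1 and was the lowest of the 6 in Ifit2, Mx1 and Oas2. Sample 5 was the lowest in Ifit3, Ifi44, Mx2 and Oas1a. Of these pools, sample 1 had the highest and sample 4 the lowest sum of T and NK cell genes (38376 and 11607 normalized counts). Single genes of that list differed in direction. Over the Kupffer cell samples, Ccl5 rose with the mean of the members (r = 0.67). Cd4, Ccr7, Il18rap, Ltb, Cd40lg and Tnfsf14 had r of -0.82 to -0.39 with that mean, and the list's other genes were not compared. The part of this in the pattern was not tested.

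**Figure D3:**
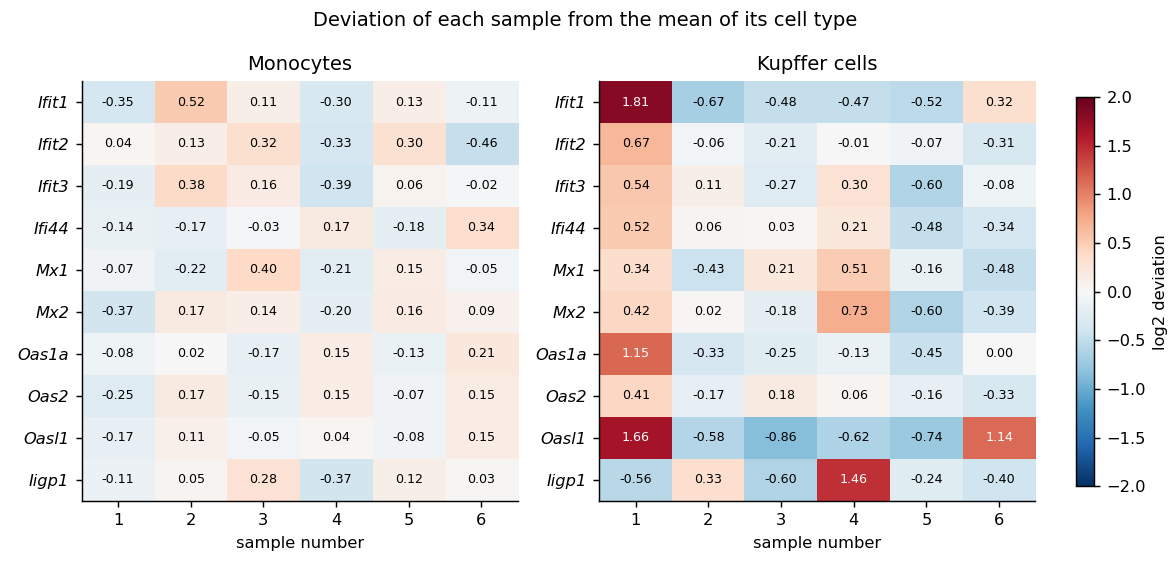
Deviation of each sample (columns) from the mean of its own cell type, in log2 of normalized count + 1, for the 10 genes (rows). Kupffer cell sample 1 lies above the mean in all genes but Iigp1, by 1.81 in Ifit1 and 1.66 in Oasl1, sample 6 by 1.14 in Oasl1, and sample 4 by 1.46 in Iigp1, while no monocyte deviation exceeds 0.52.

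Covariation was computed as the Pearson correlation of log2 values over the 6 samples of a cell type, for 45 pairs in each of the cell types, with exact two-sided permutation tests over 720 orderings. In Kupffer cells the median r was 0.55 (range -0.43 to 0.97), with 39 of 45 above 0, or 86.7% against 61.0% of the 12720 pairs among the 160 fully measured genes, whose median was 0.22. In monocytes the median r was 0.30 (range -0.96 to 0.94), with 27 of 45 above 0, or 60% against 55.3% of all pairs, whose median was 0.16. None of the 90 correlations had an adjusted p under 0.05 in the exact permutation test, and 7 in Kupffer cells and 4 in monocytes had an unadjusted p under 0.05. The Kupffer cell median rested in part on sample 1, since it fell to 0.26 without it. The monocyte median was -0.04 after rescaling each sample to its panel median, so it had no settled sign.

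The closest pair in Kupffer cells was Ifit1 and Oas1a (r = 0.97, exact permutation p = 0.0194, adjusted p = 0.306, rho = 0.94, exact permutation p = 0.0167, adjusted p = 0.3, n = 6), but without samples 1 and 6, the farthest from the median of Ifit1, r was 0.41. Ifit1 and Oasl1 gave r = 0.92 (exact permutation p = 0.0556, adjusted p = 0.353) and rho = 0.60 (exact permutation p = 0.242, adjusted p = 0.608), and r = -0.57 without samples 1 and 6. Both relations therefore rest on these samples. Ifi44 and Mx2 gave r = 0.86 (exact permutation p = 0.0306, adjusted p = 0.306) and rho = 0.94 (exact permutation p = 0.0167, adjusted p = 0.3), and r stayed at 0.83 without samples 1 and 5. Iigp1 had r = -0.43 against Ifit1 (exact permutation p = 0.275, adjusted p = 0.526, rho = -0.37, exact permutation p = 0.497, adjusted p = 0.715), which was 0.06 without samples 1 and 6. With the other genes led by sample 1 its r was mixed. It was -0.41 to -0.10 with Oasl1, Oas1a, Oas2 and Ifit2, but 0.18 with Ifi44 and 0.31 with Ifit3 (exact permutation, adjusted p = 0.675 to 0.938). Without the 2 samples farthest from the median of the other gene, r ran from -0.04 (Oas2) to 0.96 (Ifit3). Such correlations over 6 pools share the lane and its scaling factor.

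Oas2, though lower in Kupffer cells, had correlations above 0 with 8 of the other 9 genes over the 6 Kupffer cell pools. But r was below 0 in 5 of the 9 pairs once 2 samples were left out (range -0.58 to 0.94). These were the samples farthest from the median of 1 gene of the pair, so they differed between pairs. Its median r with the other 9 was 0.60 in Kupffer cells (range -0.13 to 0.83), with the lowest value against Iigp1. Against Mx1 r was 0.83 in Kupffer cells (exact permutation p = 0.0472, adjusted p = 0.353, rho = 0.83, exact permutation p = 0.0583, adjusted p = 0.404), 0.94 without samples 4 and 6, and -0.60 in monocytes (exact permutation p = 0.269, adjusted p = 0.526, rho = -0.54, exact permutation p = 0.297, adjusted p = 0.608). In monocytes the median was 0.30 (range -0.60 to 0.94). There the closest partner was Oasl1, with r = 0.94 (exact permutation p = 0.0250, adjusted p = 0.306), rho = 0.89 (exact permutation p = 0.0333, adjusted p = 0.333) and r = 0.91 without samples 1 and 3, against r = 0.23 between the same genes in Kupffer cells (exact permutation p = 0.678, adjusted p = 0.782, rho = -0.09, exact permutation p = 0.919, adjusted p = 0.962). The difference between the cell types in these correlations was not tested. The strongest negative pair was that of Ifit2 and Oas1a in monocytes (r = -0.96, exact permutation p = 0.0111, adjusted p = 0.306, rho = -0.94, exact permutation p = 0.0167, adjusted p = 0.3), with r = -0.70 without samples 4 and 6.

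**Figure D4:**
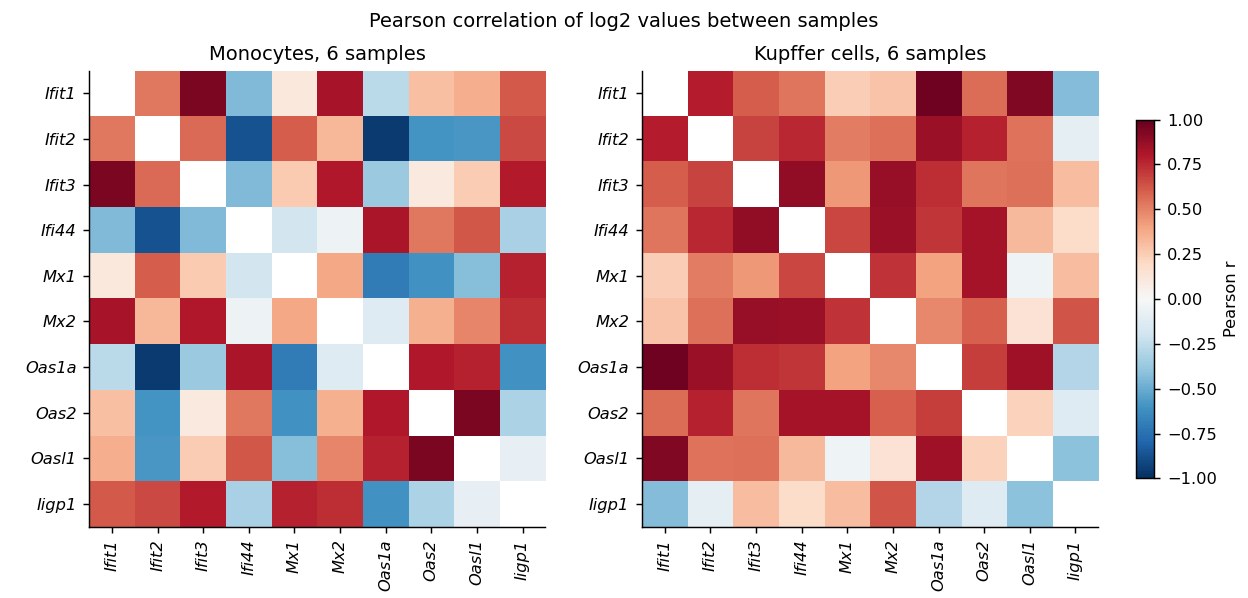
Pearson r of log2 values for each pair of the 10 genes over the 6 monocyte samples (left) and the 6 Kupffer cell samples (right), on a scale from -1 (blue) to 1 (red). In Kupffer cells 39 of 45 pairs are above 0 and Iigp1 is in 5 of the 6 pairs below 0, while in monocytes 27 of 45 are above 0.

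The genes around the members in the interferon pathway were taken from a list of 38, of which 18 were analysed here. Of these 18, 9 were higher and 4 lower in Kupffer cells at an adjusted p under 0.05 (limma), against 35.1% and 21.4% of all genes, and 5 did not pass. They had a median log2 fold change of 0.44 against 0.05 over all genes. Among the interferons, only Ifng was called. It had 263 to 374 normalized counts in Kupffer cells (median 311) and 20.7 to 32.6 in monocytes (median 26.2), with 1 monocyte sample at the background. On the log2 scale the difference was 3.53 (standard error 0.14, adjusted p = 2.07e-10 from limma). The background of the monocyte lanes, times their factor, was 5.63 to 15.7, so the monocyte level lay near the floor and the size of this fold is uncertain. Unlike Iigp1, Ifng was even among the Kupffer cell pools, with an SD of 0.19 on the log2 scale. Ifna1 stood at the background in 6 of 6 monocyte and 5 of 6 Kupffer cell samples, and Ifnb1 in 5 of 6 of each, so that no fold is given for these type I interferons.

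Stat2, a signal transducer of type I interferons, was higher in Kupffer cells. It had 472 to 899 normalized counts against 195 to 253 in monocytes, with no overlap, a difference of 1.49 on the log2 scale (limma adjusted p = 2.13e-06). Of the interferon regulatory factors, Irf1 (log2 fold change 0.80, adjusted p = 0.000126) and Irf7 (0.69, adjusted p = 0.000326), a factor that amplifies type I interferon production, were higher, and Irf5 was lower (-0.64, adjusted p = 0.00852, all from limma). Irf3 was at the background in 5 of 6 monocyte and 2 of 6 Kupffer cell samples, and no fold is given.

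The list holds 9 nucleic acid sensors and adaptors, of which 5 were analysed. Of these 5, 3 were lower in Kupffer cells and none was higher, against 21.4% and 35.1% of all genes tested. Tlr7 and Tlr8, which detect single-stranded RNA in endosomes, showed differences of -0.96 and -1.90 on the log2 scale (limma adjusted p = 0.000533 and 9.40e-06), as was Tlr9, a sensor of DNA, with -0.59 (limma adjusted p = 0.0156). Without Kupffer cell samples 1 and 6 the difference in Tlr9 was -0.47 (adjusted p = 0.0743). Their adaptor Myd88 was not called (0.18, adjusted p = 0.195), with -0.08 after rescaling to the panel median and -0.28 (adjusted p = 0.0220) after quantile normalization. Tlr3, the sensor of double-stranded RNA, was at the background in all 12 samples.

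Of the 12 other interferon-induced genes on the list, 5 were analysed. All 5 were higher in Kupffer cells, against 35.1% of all genes tested. The chemokine genes Cxcl9 and Cxcl10, whose products draw T cells, did not overlap between the cell types. Cxcl10 differed by 2.24 on the log2 scale (limma adjusted p = 0.000109), with 1 of 6 monocyte samples at the background. For Cxcl9 and Nos2, which encodes the inducible nitric oxide synthase, monocyte values lay between 13.5 and 27 normalized counts and 5 of 6 were the background of the lane, so that no fold is given (limma adjusted p = 0.000213 and 0.00145 on the listed values). Both chemokine genes were by far the highest in Kupffer cell sample 4, at 801 and 438 normalized counts against 78.0 to 114 and 109.6 to 140.3 in the other 5, and it was this pool that was also the highest in Iigp1, Mx1 and Mx2. Cfb, the complement factor B gene, and Ifi27l2a differed by 1.51 and 0.74 on the log2 scale (limma adjusted p = 4.37e-05 and 0.00149). Nos2 had 25.6 to 59.2 normalized counts in Kupffer cells, and the cell types overlapped.

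**Figure D5:**
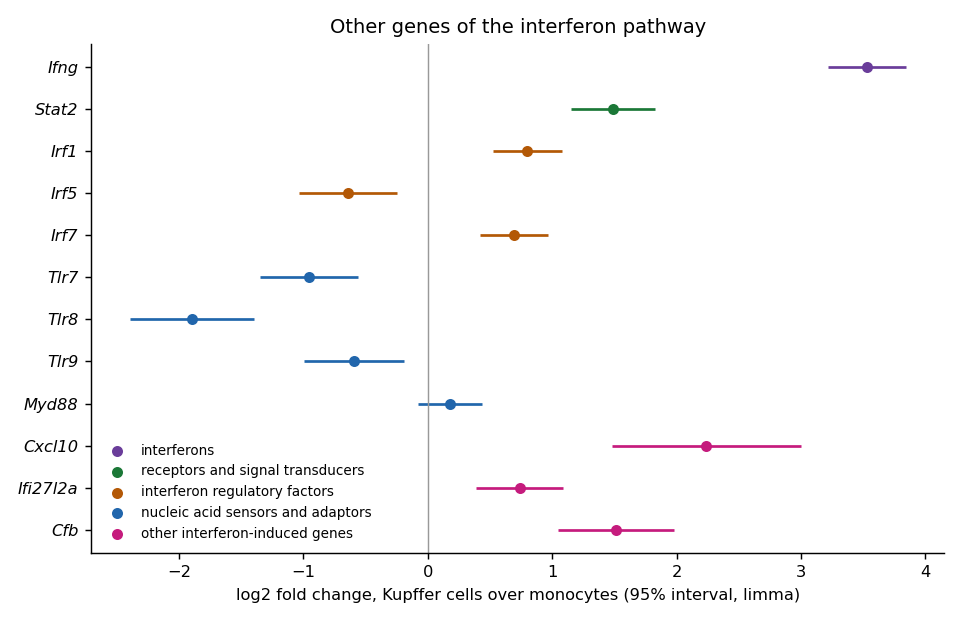
Log2 fold change, Kupffer cells over monocytes, with 95% intervals from limma, of 12 pathway genes coloured by role. Ifng, Stat2, Irf1, Irf7, Cxcl10, Ifi27l2a and Cfb lie above 0, Irf5 and the toll-like receptor genes lie below 0, and Myd88 is not called. Ifna1, Ifnb1, Irf3, Tlr3, Cxcl9 and Nos2 are not drawn because most samples of at least 1 cell type were at the background.

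The genes whose pattern between samples was most like that of the 10 members were sought among the 150 other genes above the background in all samples, by the correlation with the members' mean over the 12 samples after subtracting the mean of each cell type. The 5 highest were Limk1 (r = 0.76), Ptger4 (r = 0.76), Irf7 (r = 0.69), Irf1 (r = 0.65) and Gnb1 (r = 0.64). The mean of the members deviated most in Kupffer cell sample 1, by 0.70 on the log2 scale, and in Kupffer cell sample 5, by -0.40, so that these correlations, given as a description, lean on few samples.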

How the data were processed

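The mRNA of 248 inflammation-related genes was counted by nanostring in 6 samples of Kupffer cells and 6 of blood monocytes. What the authors deposited is a normalized signal for each gene in each sample, namely reporter counts scaled in nSolver 4.0 with 1 factor per lane from the positive controls and housekeeping genes. The background was the highest of the 8 negative controls in a lane, and genes below it carry that count without the factor. No column belonged to another sample. Values over the background are whole multiples of the lane's factor to within 0.02, so dividing by it gave the counted molecules. Because background values were not multiplied, no count model was used.

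Differences between cell types, ratios to Oas2 and absolute deviations from the group mean were each tested with limma 3.58.1 (R 4.3.3), two-sided, on the log2 of the value + 1, with Benjamini-Hochberg adjustment over all genes and a threshold of 0.05. Pairs of genes were tested by exact permutation with adjustment over 90 pairs, where the smallest p is 0.0028. Permutations used scipy 1.17.1, tables pandas 2.3.3 and numpy 2.4.6, and plots matplotlib 3.10.9, all under Python 3.11.15. The steps were tested on simulated data.

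The members, the pathway list and the marker lists were chosen with earlier results of these data known. Named are all members, the pathway genes that passed the threshold, all interferons and interferon regulatory factors, and the 5 genes most like the members' mean. Pathway genes named besides these (Myd88, Tlr3), Gapdh, Gusb and the markers Cd163, Mrc1, Flt1, Cxcr1 and Cxcr2 were singled out after their values were seen. So were the T and NK cell genes named besides Ifng. Of the genes these rules and lists cover, 2 are not reported here. Whether sample numbers pair the cell types is not given in the labels, and the main tests took the samples as unpaired. Other settings tried were another pseudocount, filtering of low values, the scaling, a replicate block, the centre of deviations, and each sample left out in turn; leaving out Kupffer cell samples 1 and 6 together was chosen after seeing the data. With 6 samples per cell type, that number limits the precision. Upstream sequences of Mx1, Mx2, Oas2 and Iigp1 and all proteins were not used here.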

Additional observations from a re-analysis of the deposited data

Results flagged for a closer look

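A sample was singled out where its gap to the nearest of the other 5, divided by the range of its group, both on log2(normalized count + 1), exceeded Dixon's 95% critical value for 6 samples. Chance gives this in about 1 in 20 groups, and it occurred in 2 of 20 groups of the members and in 4 of 36 groups of the pathway genes. Among the members, Kupffer cell sample 1 stood alone at the top of Ifit2 (730.6 normalized counts, next 457, gap share 0.690) and of Oas1a (1504, next 681, gap share 0.717). Kupffer cell sample 4 stood alone in Cxcl9 (801, next 114, gap share 0.837) and Cxcl10 (438, next 140.3, gap share 0.822). Monocyte sample 2 was lowest in Ifna1 and Tlr3, with a gap share of 0.676 in both, where every monocyte value is the background of its lane.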

How the results depend on the processing

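The counts and the members' values kept their direction under all alternatives run, apart from the following. The number of members higher in Kupffer cells, 8, was 5 under quantile normalization and 7 to 8 with each sample left out. The 1 member that was lower, Oas2, gave a count of 0 after rescaling to the listed housekeeping genes other than Gapdh. The count was 0 with the replicate block (adjusted p = 0.0851, limma) and 0 to 1 with each sample left out. The block changed no other member's call. All 9 ratios to Oas2 kept their call throughout. Of the pathway genes, 4 were lower, 7 after rescaling to the median and 4 to 7 with each sample left out, where 7 was reached without monocyte sample 2, which holds the lowest background. Myd88 turned to -0.0814 after rescaling to the median and to -0.28 under quantile normalization. The single call for a larger spread, Oasl1, gave 0 with deviations from the median, 0 without Kupffer cell samples 1 and 6 and 0 to 1 with each sample left out, and the spread difference of Ifit1 (0.50) turned to -0.20 without both. The median r over pairs was 0.26 to 0.67 in Kupffer cells and -0.0053 to 0.35 in monocytes with each sample left out (lowest without sample 1 of each), and -0.0442 in monocytes after rescaling to the median. The causes were not tested. Rescaling to the median shifted the median log2 fold change of all genes by -0.26. Rescaling to the listed housekeeping genes other than Gapdh shifted it by 0.10. The members' median was then 1.07 and 1.43. The deviations of same-numbered samples had correlations of -0.23 to 0.40, which cannot decide whether the numbers are a pairing. All members exceeded the background in all 12 samples, the fewest molecules being 42, for Mx2 in Kupffer cell sample 5. The part of counting depth in their spread and calls was not tested.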
